A study of Mus musculus with 8 samples.

Results

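The proteasome genes were examined in cultured keratinocytes (KCs), the epithelial cells of the epidermis. They were defined as the protein-coding genes whose symbols begin with Psma to Psmg followed by a digit, without the immunoproteasome genes Psmb8, Psmb9 and Psmb10. This gave 47 of the 41457 genes listed, and 44 of them had enough reads to be tested. The rule used names and no expression values. It also took in Psmc3ip, which is no proteasome subunit but the meiotic recombination protein Hop2, and it missed the subunit genes Adrm1 and Sem1. KCs came from the tail of adult wildtype C57BL/6 mice, were grown untreated in serum-free medium with low calcium, and were harvested after 1 week (4 samples) or 3 weeks (4 samples) of cultivation. The samples come from 4 independent experiments by the series' description, and p-values measure the spread between these samples. In such bulk samples, fewer cells of a type and less RNA per cell cannot be told apart.

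The proteasome is the protease complex that degrades proteins tagged with ubiquitin in the cytosol and nucleus. Its core particle is a barrel of alpha rings on the outside and beta rings on the inside, and Psmb5, Psmb6 and Psmb7 carry the proteolytic sites. The regulatory particle docks on the barrel, binds ubiquitin chains, removes them, and unfolds the substrate with a ring of ATPases. Dedicated chaperones build the complex: the Psmg proteins (PAC1 to PAC4) assemble the alpha ring of the core particle, and Psmd5, Psmd9 and Psmd10 assist the ATPase ring.

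Sequences upstream of 5 genes are shown, because the chaperone genes Psmg1 and Psmg3 and the subunit gene Psmd8 passed the test between 1 and 3 weeks, whereas Psmb5 and Psmb6 are catalytic subunits that did not. Each sequence covers the 250 bases before the RefSeq transcript start (GRCm38.p6), read 5′ to 3′ on the strand of the gene. The windows are chr16:95990961-95991210 (minus strand) for Psmg1, chr5:139826895-139827144 (minus) for Psmg3, chr14:54617996-54618245 (minus) for Psmb5, chr11:70525107-70525356 (plus) for Psmb6 and chr7:29180674-29180923 (minus) for Psmd8. Capitals mark TGACNNNGC, an element read by NFE2L1 and NFE2L2, and GGGCGG, an element of the Sp1 family, on either strand.
Psmg1: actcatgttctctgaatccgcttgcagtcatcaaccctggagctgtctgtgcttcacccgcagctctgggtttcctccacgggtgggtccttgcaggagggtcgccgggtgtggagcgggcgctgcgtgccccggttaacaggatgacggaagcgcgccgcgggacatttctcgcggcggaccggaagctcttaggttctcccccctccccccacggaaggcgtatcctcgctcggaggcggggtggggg
Psmg3: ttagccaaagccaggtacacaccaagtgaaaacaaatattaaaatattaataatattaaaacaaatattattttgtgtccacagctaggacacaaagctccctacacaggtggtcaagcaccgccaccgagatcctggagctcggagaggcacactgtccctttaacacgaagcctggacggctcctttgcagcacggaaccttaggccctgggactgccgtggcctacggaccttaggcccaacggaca
Psmb5: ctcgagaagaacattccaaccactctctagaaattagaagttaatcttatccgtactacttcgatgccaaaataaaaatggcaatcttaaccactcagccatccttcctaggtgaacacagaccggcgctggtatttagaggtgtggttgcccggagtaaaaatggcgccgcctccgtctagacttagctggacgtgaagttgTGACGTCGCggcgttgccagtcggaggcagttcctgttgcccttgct
Psmb6: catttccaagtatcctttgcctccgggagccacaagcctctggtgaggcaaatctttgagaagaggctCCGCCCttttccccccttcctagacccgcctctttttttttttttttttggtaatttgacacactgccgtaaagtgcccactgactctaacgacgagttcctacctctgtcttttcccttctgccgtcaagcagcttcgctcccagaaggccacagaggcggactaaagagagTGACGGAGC
Psmd8: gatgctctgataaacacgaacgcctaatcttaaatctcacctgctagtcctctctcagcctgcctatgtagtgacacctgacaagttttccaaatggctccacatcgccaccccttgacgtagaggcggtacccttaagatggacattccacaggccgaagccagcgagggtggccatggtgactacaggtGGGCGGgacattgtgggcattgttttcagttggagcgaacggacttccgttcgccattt
The last 27 bases of the Psmb5 window and the last 28 of the Psmd8 window lie inside the deposited gene models, which start further upstream. A match to TGACNNNGC lay 47 bases before the start of Psmb5 and 9 bases before that of Psmb6. No match to the elements in capitals was present in the Psmg1 and Psmg3 windows, which says nothing of the factors themselves. The absence in Psmg1 depends on the form searched, because the looser TGANNNNGC, not capitalized here, did match upstream of Psmg1.

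Upstream windows were available for 39 of the 47 genes (42 windows) and were set beside 32851 windows of the genome. The latter were not matched to the proteasome windows in base composition or in expression of their genes. The element TGACNNNGC occurred in 5 of the 42 windows (11.9%, against 10.2% of all windows), those of Psmb5, Psmb6, Psmc6, Psmd9 and Psmd12. CCAAT, read by NF-Y, occurred in 33.3% of the proteasome windows and 33.8% of all windows. GGGCGG occurred in 52.4% against 32.7%. CCGGAAGT, an element of the ETS family, occurred in 6 windows of 5 genes (14.3% against 2.88%), which were Psmc1, Psmc2, Psmd6, Psmd12 and Psme4. In all, 12 short elements were searched on both strands, some of which can overlap, and the ones given here were picked after the matches had been seen. None of the windows with CCGGAAGT or TGACNNNGC belonged to a gene that passed the test between 1 and 3 weeks. Only 11.4% of the tested proteasome genes passed, so this absence in a few genes carries no information. Other elements did occur at genes that passed: CCAAT (Psmc3ip), GGGCGG and AAGATGG (Psmd8), and TGANNNNGC (Psmg1 and Psmc3ip). The last, a looser form of TGACNNNGC, occurred in 40.5% of the proteasome windows and 35.2% of all windows.

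Exon reads numbered 13896807 to 20026084 per sample, and the comparison of 3 weeks with 1 week used edgeR's quasi-likelihood test on these reads with adjustment over 12590 genes. RPKM values, which are reads per exon length and per mapped reads, were summed to between 330529 and 370490 in 7 of the samples and to 477197 in replicate 3 of 3 weeks. In that sample, genes with shorter exons stood higher (Spearman's rho of -0.36 between deviation and exon length across all tested genes, which are not independent). The KC markers Krt5 and Krt14 were high in all samples and made up most of the summed RPKM of 6 KC markers. This sum was 12337 to 14500 at 1 week and 7282 to 8446 at 3 weeks. Krt5 and Itga6 were called lower (2 of 6, or 33.3%, against 17.0% of all tested genes). The others were not called, with log2 fold changes of -0.23 (Krt14), -0.69 (Trp63), 0.40 (Itgb4) and 0.58 (Cdh1). Summed fibroblast markers (6 genes) lay between 2.30 and 4.65 RPKM, immune cell markers (5 genes, with Cd207 at 0) between 1.22 and 4.04, and endothelial markers (4 genes) between 0.275 and 0.559. Melanocyte markers (5 genes) summed to 3.18 to 20.9 RPKM at 1 week and 1.26 to 5.50 at 3 weeks. Of the 4 tested, 1 was called lower (25.0%, against 17.0% of all tested genes). This was Pmel, which fell by 2.06 on the log2 scale (adjusted p = 0.0266, edgeR). Pmel overlaps Cdk2 and Dgka on the opposite strand, so its reads are less certain. The part of these differences in the results was not tested.

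After 3 weeks of culture, 1 of the 31 proteasome subunit genes was called, and 3 of the 4 Psmg chaperone genes had fallen. Of the 44 tested genes, Psmg1, Psmg2, Psmg3 and Psmc3ip fell and Psmd8 rose past edgeR's threshold of 0.05 for adjusted p-values. These 5 genes were 11.4% of those tested, against 32.8% of all tested genes. By direction, 4 were lower, against 17.0% of all tested genes, and 1 was higher, against 15.7%. The median log2 fold change was -0.05 over the 44 genes and 0.03 over all tested genes, and 19 of the 44 values were positive and 25 negative. This balance depended on the samples. With edgeR on the 3 preparations of KCs whose number, given in the file names, occurs at both times, and with that number as a block, 5 values were positive and 39 negative, with a median of -0.22 against -0.02 over all genes, 4 genes were lower (9.09%, against 14.2% of all tested genes) and 0 were higher. Without replicate 3 of 3 weeks, 4 values were positive and 40 negative. The plot of fold changes by gene shows the Psmg genes and Psmc3ip to the left of all subunits.

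**Figure D1:**
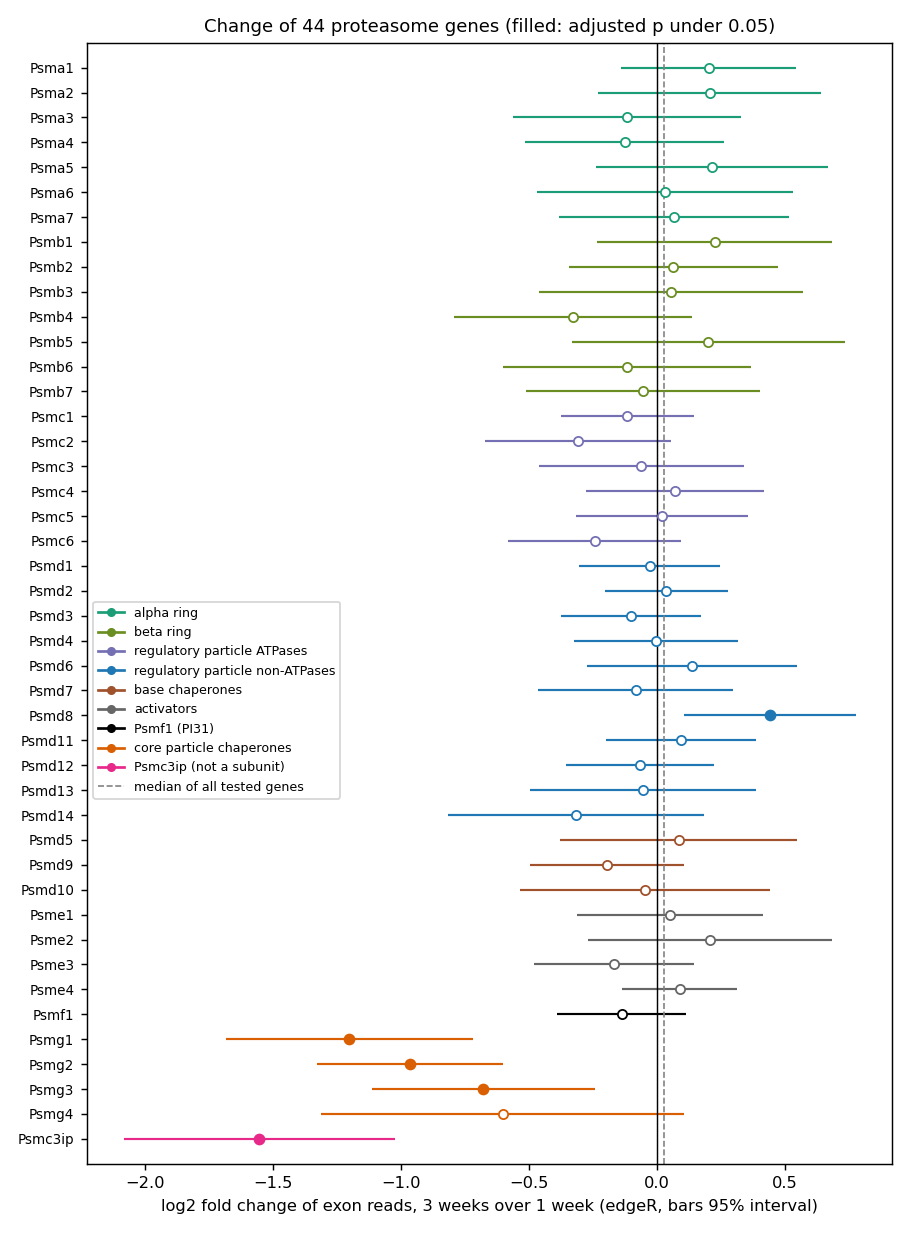
Log2 fold change of exon reads (3 weeks over 1 week, edgeR, x axis) for the 44 tested genes (y axis), coloured by role, with bars for 95% intervals and filled points for an adjusted p-value under 0.05. Psmg1, Psmg2, Psmg3 and Psmc3ip lie between -1.55 and -0.68, the intervals of all subunits lie between -0.82 and 0.78, and Psmd8 is the only filled point on the right.

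Of the Psmg chaperone genes of the core particle, 3 of 4 fell (75.0%, against 17.0% of all tested genes). Psmg1 (ENSMUSG00000022913, chromosome 16, 95979933 to 95990960, GRCm38) encodes PAC1, which works as a pair with PAC2. Its RPKM values were 21.3, 20.95, 17.1 and 19.95 at 1 week, in the order of replicates 1 to 4, and 7.43, 6.65, 10.1 and 6.18 at 3 weeks. Every 3-week sample lay below every 1-week sample. The mean went from 19.8 ± 1.89 to 7.59 ± 1.75 RPKM (SD, n = 4), and the log2 fold change was -1.20 (standard error, SE, 0.21, adjusted p = 0.00318, edgeR). The upstream window printed above ends at the base before this gene.

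Psmg2 (ENSMUSG00000024537, chromosome 18, 67641599 to 67654162), the gene of PAC2, was at 23.8, 23.7, 17.2 and 21.2 RPKM at 1 week and at 8.87, 9.48, 10.2 and 10.6 RPKM at 3 weeks. The groups did not overlap, and replicate 3 was the lowest at 1 week for both partners of the pair. Means were 21.4 ± 3.09 and 9.80 ± 0.777 RPKM (SD, n = 4), and edgeR gave a log2 change of -0.96 (SE 0.16, adjusted p = 0.00239). Both genes stayed under an adjusted p-value of 0.05 in all 18 alternative fits, with log2 fold changes from -1.46 to -1.10 for Psmg1 and from -1.11 to -0.90 for Psmg2, and adjusted p-values of at most 0.0155 and 0.0212.

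Psmg3 (ENSMUSG00000029551, chromosome 5, 139823592 to 139826885) and Psmg4 (ENSMUSG00000071451, chromosome 13, 34162964 to 34178173) encode PAC3 and PAC4, which form the other pair. Psmg3 was at 6.81, 7.22, 5.25 and 6.00 RPKM at 1 week and at 3.02, 3.47, 4.29 and 3.20 RPKM at 3 weeks, without overlap in RPKM. On TMM-scaled reads, the scale of the test, Psmg3 did overlap. Its log2 deviation from the mean of 8 samples was 0.112 in replicate 3 of 3 weeks and 0.075 in replicate 3 of 1 week. Its log2 fold change was -0.68 (SE 0.19, adjusted p = 0.0255, edgeR). Only 31.4% of its reads mapped to a unique place, and it overlaps Gm26938 on the same strand, so its level is uncertain. Unique reads alone gave -0.61 (adjusted p = 0.0482). The call was lost without replicate 2 or 4 of 1 week and without replicate 1 or 2 of 3 weeks.

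Psmg4 was at 20.9, 16.97, 12.7 and 13.7 RPKM at 1 week and at 8.60, 9.98, 13.3 and 5.40 RPKM at 3 weeks. Here the groups overlapped, since replicate 3 of 3 weeks was above replicate 3 of 1 week. The log2 fold change was -0.60 (SE 0.31, 95% interval -1.31 to 0.11, adjusted p = 0.173, edgeR), so a fall of the size seen for Psmg1 remains inside the interval. With replicate 3 of 3 weeks left out it was -0.91 (adjusted p = 0.0334). Exon reads of Psmg4 numbered only 44 to 221 per sample.

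The summed RPKM of Psmg1 to Psmg4 was 72.7, 68.8, 52.2 and 60.8 at 1 week and 27.9, 29.6, 37.9 and 25.4 at 3 weeks. As a share of the summed RPKM of the 14 core particle genes in the same sample, the chaperones made up 5.24%, 5.74%, 4.39% and 5.03% at 1 week and 2.76%, 2.49%, 2.61% and 2.98% at 3 weeks. This share lies within a narrow range at 3 weeks, although the core particle sum itself was 1451 RPKM in replicate 3 and 853 RPKM in replicate 4. Pomp, the chaperone of the beta ring, went the other way in value: 22.7, 19.8, 26.95 and 26.3 RPKM at 1 week against 26.6, 28.9, 33.1 and 24.5 RPKM at 3 weeks. Its log2 fold change of 0.41 did not pass the test (SE 0.17, adjusted p = 0.0906, edgeR), and the groups overlapped.

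**Figure D2:**
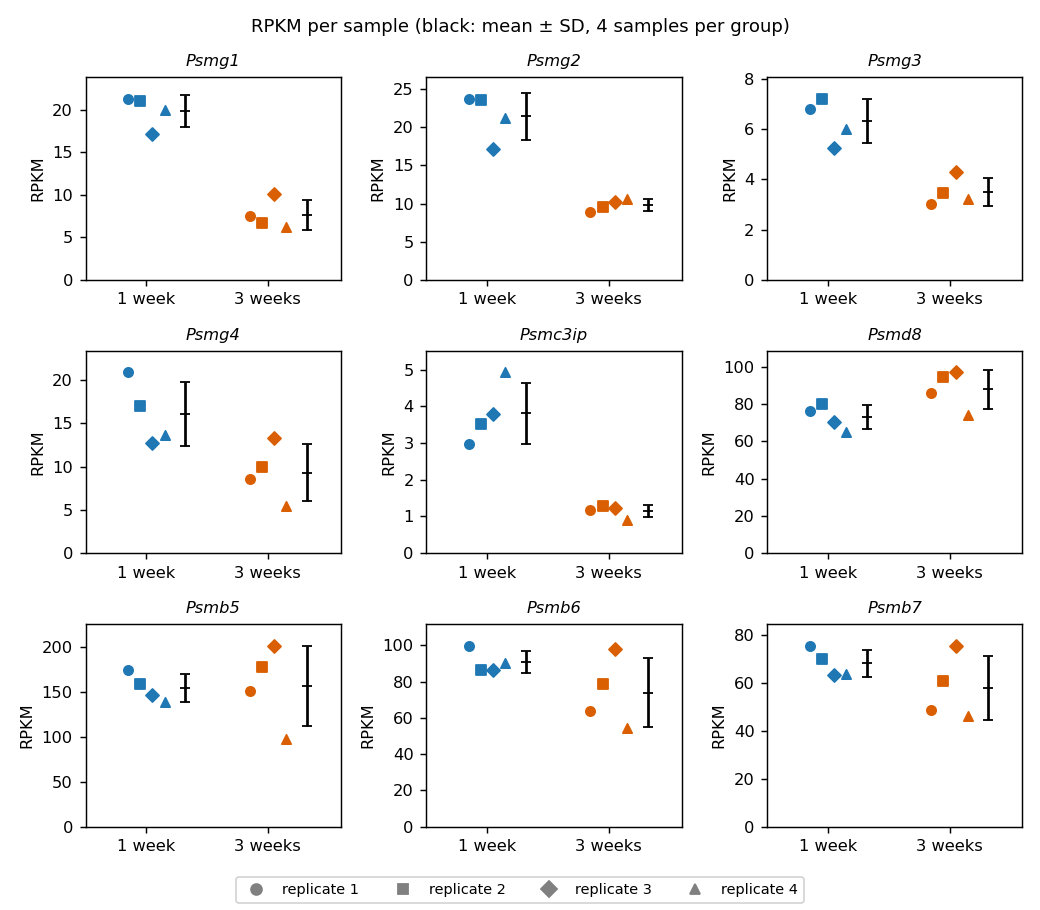
RPKM (y axis, from 0) of 9 genes in each of the 4 samples of 1 week (blue) and 3 weeks (orange), with the marker giving the replicate number and black bars the mean ± SD. Psmg1, Psmg2, Psmg3 and Psmc3ip separate the groups, whereas Psmg4, Psmd8 and the catalytic subunits Psmb5, Psmb6 and Psmb7 overlap.

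The alpha and beta rings of the core particle gave no call. Of their 14 genes, edgeR called 0 (against 32.8% of all tested genes), DESeq2 called 0, and 0 had an unadjusted p-value under 0.05. Log2 fold changes ran from -0.33 (Psmb4) to 0.23 (Psmb1), with a median of 0.06. All 14 intervals lay within a 2-fold change either way, from -0.79 to 0.73.

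Of the catalytic subunits, Psmb5 (ENSMUSG00000022193, chromosome 14, 54614119 to 54618022), which cuts after hydrophobic residues, was the most abundant. It was at 174, 159, 147 and 139 RPKM at 1 week and at 151, 178, 201 and 97.4 RPKM at 3 weeks, so that the 3-week samples held both the highest and the lowest value. The log2 fold change was 0.20 (SE 0.24, 95% interval -0.33 to 0.73, adjusted p = 0.550, edgeR). Psmb6, the caspase-like subunit, was at 99.9, 86.6, 86.5 and 90.2 RPKM against 64.1, 78.9, 98.1 and 54.3 RPKM. Its log2 fold change was -0.12 (interval -0.60 to 0.37, adjusted p = 0.714).

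Psmb7, the trypsin-like subunit, was at 75.7, 70.0, 63.3 and 63.9 RPKM at 1 week and at 48.9, 61.0, 75.6 and 46.3 RPKM at 3 weeks. Its log2 fold change was -0.05 (interval -0.51 to 0.40, adjusted p = 0.864, edgeR). In all of these catalytic genes the 3-week samples kept an order, with replicate 3 highest and replicate 4 lowest. Their immunoproteasome counterparts, which replace them after interferon, were far less abundant: Psmb8 was at 2.76 to 5.93 RPKM at 1 week and 1.00 to 1.39 at 3 weeks (log2 fold change -1.53, adjusted p = 0.00289), Psmb10 fell by 1.00 on the log2 scale (adjusted p = 0.0290), and Psmb9 did not pass the test at -0.94 (adjusted p = 0.0895). Reads of Psmb10 were 33.6% unique, and unique reads alone gave -1.01 without a call (adjusted p = 0.0633, edgeR). Its call was lost in 5 of 18 alternatives.

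Among the other subunits of the barrel, levels per exon length ranged at 1 week from 43.6 ± 4.36 RPKM for Psmb1 to 178 ± 17.9 RPKM for Psma6 (SD, n = 4). Psma6, an alpha subunit, was the most abundant of all 31 subunit genes at 1 week in every sample. Psmb4, a beta subunit without a proteolytic site, had the lowest log2 fold change of the barrel, -0.33 (SE 0.21, adjusted p = 0.253, edgeR), at 157, 132, 126 and 132 RPKM against 85.2, 100, 125 and 74.1 RPKM. Psma3 and Psmb3 are less certain, with 17.8% and 45.2% of their reads unique.

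Levels of the 31 subunit genes kept their rank order between the times, with a Spearman's rho of 0.94 over their mean RPKM values, which come from the same libraries. Psma6 or Psmb5 was the highest subunit gene in every sample, and Psmd11 was the lowest in all of them. The ratio of highest to lowest varied from 5.57 in replicate 4 of 3 weeks to 14.5 in replicate 3 of 3 weeks. Psmd11 encodes the Rpn6 subunit, a clamp between the lid and the core particle, and was at 19.4 ± 2.52 RPKM in the younger and 18.6 ± 2.82 RPKM in the older cultures (SD, n = 4). Of the 30 pairs of neighbours in this order, 28 at 1 week and 29 at 3 weeks had overlapping ranges of mean ± SD. Psma6 and Psmb5, for example, were at 178 ± 17.9 and 155 ± 15.4 RPKM at 1 week and at 160 ± 42.0 and 157 ± 44.7 RPKM at 3 weeks.

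**Figure D3:**
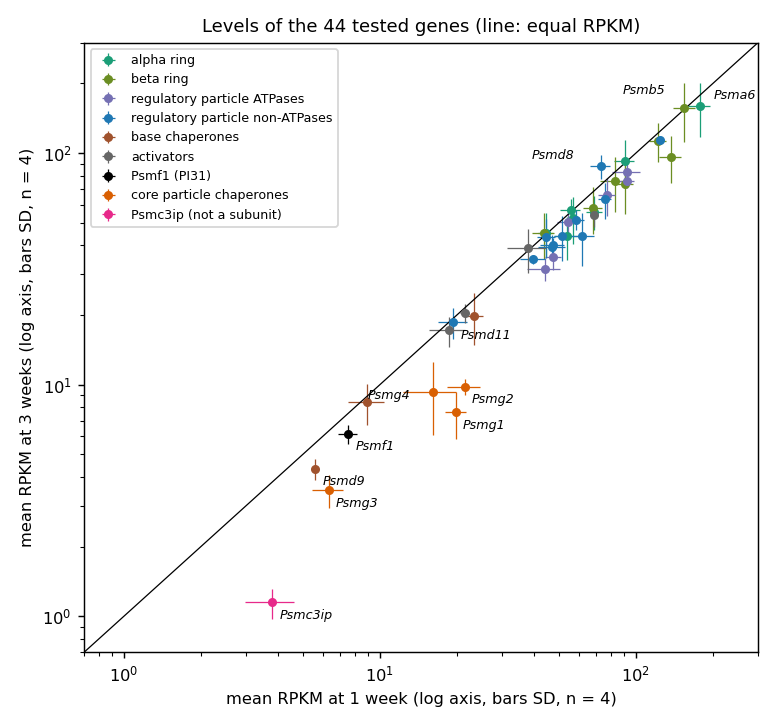
Mean RPKM at 1 week (x axis) and at 3 weeks (y axis) of the 44 tested genes on log axes, coloured by role, with bars for the SD of 4 samples and a line at equal values. Subunit genes lie close to the line, from Psmd11 at 19.4 and 18.6 RPKM to Psma6 at 178 and 160 RPKM, while Psmg1, Psmg2 and Psmc3ip lie farthest below it.

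In the regulatory particle, 1 of 17 genes passed the test (5.88%, against 32.8% of all tested genes). Psmd8 (ENSMUSG00000030591, chromosome 7, 29174188 to 29180701) encodes Rpn12, a subunit of the lid. It was at 76.2, 79.8, 70.5 and 65.2 RPKM at 1 week and at 85.9, 94.8, 97.0 and 73.9 RPKM at 3 weeks. The groups overlapped, because replicate 4 of 3 weeks lay below replicates 1 and 2 of 1 week. The log2 fold change was 0.44 (SE 0.15, 95% interval 0.11 to 0.78, adjusted p = 0.0482, edgeR). The call held in 4 of 18 alternative fits, with adjusted p-values from 0.0118 to 0.173, and it was lost when any sample but replicate 4 of 3 weeks was left out. With the preparation block it was 0.34 (adjusted p = 0.173).

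The other 10 non-ATPase subunits gave no call, with log2 fold changes from -0.31 (Psmd14, the deubiquitinase Rpn11) to 0.14 (Psmd6). Psmd4, a ubiquitin receptor, was at 58.2 ± 4.56 RPKM after 1 week and 51.6 ± 5.24 after 3 weeks (SD, n = 4), and its log2 fold change was -0.00 (95% interval -0.32 to 0.32, adjusted p = 0.992, edgeR). Psmd2, the large scaffold subunit Rpn1, had the most even level, 124 ± 0.972 RPKM after 1 week and 114 ± 4.60 after 3 weeks (SD, n = 4). Its RPKM groups did not overlap, yet its log2 fold change on TMM-scaled reads was 0.04 (adjusted p = 0.817).

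Of the 6 ATPase genes, edgeR called 0 (against 32.8% of all tested genes), DESeq2 called 0, and 0 had an unadjusted p-value under 0.05. Their log2 fold changes ran from -0.31 (Psmc2, Rpt1) to 0.07 (Psmc4, Rpt3), with a median of -0.09. Psmc2 was at 46.5, 52.4, 38.5 and 39.4 RPKM at 1 week and at 31.4, 33.8, 34.9 and 26.7 RPKM at 3 weeks, without overlap (adjusted p = 0.173, edgeR). Psmc6 (Rpt4) followed at -0.24, with 52.0, 47.7, 43.7 and 47.1 RPKM against 34.1, 35.7, 41.5 and 31.5 RPKM (adjusted p = 0.246). Over all 31 subunit genes of both particles, each 95% interval lay within a 2-fold change either way, between -0.82 and 0.78.

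The direction of small differences depended on the scale. On RPKM, which carries no correction for library composition, 12 of the 44 genes had 3-week samples all below the 1-week samples (27.3%, against 26.2% of all tested genes) and 0 had them all above (against 10.8%). Among these 12 were the subunit genes Psmb4, Psmc1, Psmc2, Psmc6 and Psmd2. On log2(RPKM + 0.1) the median change over all tested genes was -0.16, and that of the 44 genes was -0.24. In limma on this scale 10 of the genes were lower (22.7%, against 24.5% of all tested genes), with Psmb4, Psmc2, Psmc6, Psmd9, Psme3 and Psmg4 added, and Psmd8 was not called (0.27, adjusted p = 0.124).

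A common shift of the subunit genes was seen between the samples of 3 weeks. Replicate 3 had the highest RPKM of the 3-week samples for 25 of the 31 subunit genes, with all 14 of the core particle among them. Replicate 4 had the lowest for 27, again with all 14 of the core particle. On TMM-scaled reads, replicate 3 was highest for 29 and replicate 4 lowest for 29. The shares of all tested genes with these orders were not counted. The median deviation of TMM-scaled log2 CPM from the mean of each gene was 0.42 in replicate 3 and -0.37 in replicate 4, against -0.10 to 0.14 in the other 6 samples. The heat map of deviations shows this as a red and a blue column over the subunits.

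Across the 31 subunit genes, Spearman's rho between deviation and exon length was -0.36 in replicate 3 of 3 weeks and 0.39 in replicate 4, and over all tested genes it was -0.36 and 0.26. The part of exon length in the shift was not tested. Without replicate 3 of 3 weeks, 9 of the 44 genes were lower (20.5%, against 20.8% of all tested genes), and these included the subunit genes Psmb4 (-0.57, adjusted p = 0.0166), Psmc2 (-0.43, 0.0440), Psmc6 (-0.41, 0.0211) and Psmd14 (-0.57, 0.0229). Without replicate 4 of 3 weeks, 4 genes were lower (against 18.7% of all tested genes) and none of them was a subunit. The fit with the preparation block also leaves out replicate 3 of 3 weeks, together with a sample of the younger cultures. It called 0 subunit genes lower. The count of lower subunit genes without replicate 3 of 3 weeks thus depended on the fit.

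**Figure D4:**
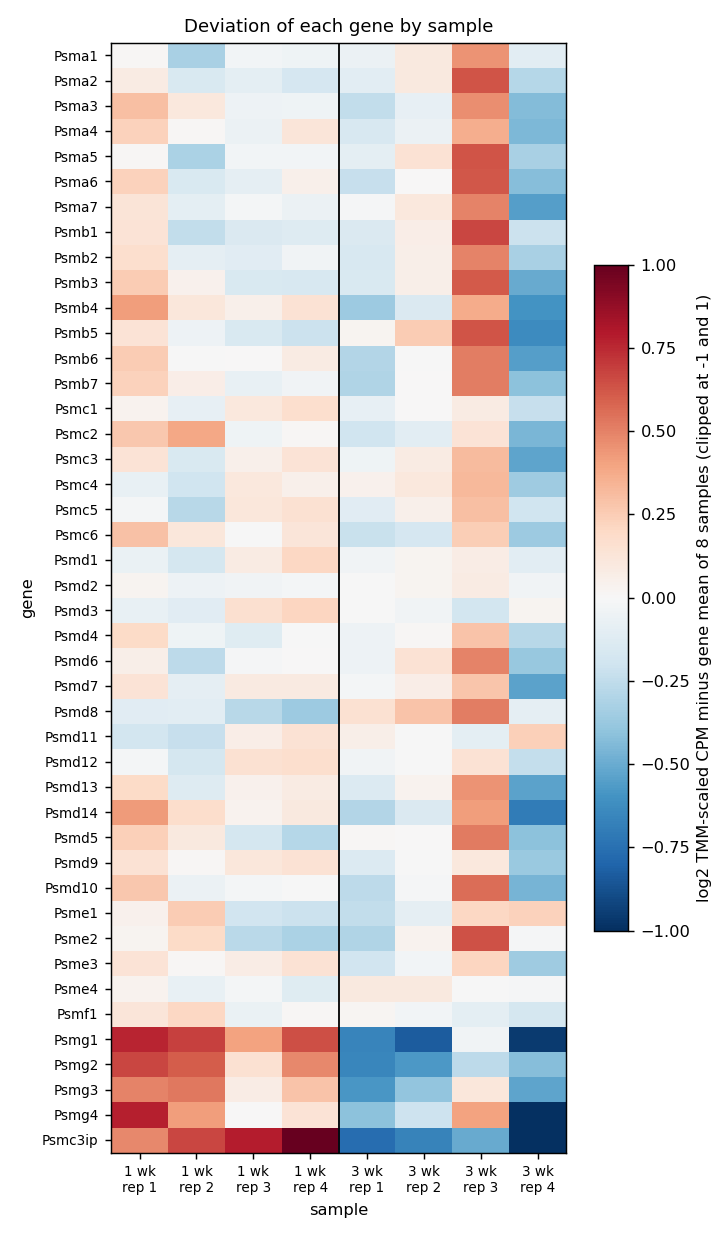
Deviation of TMM-scaled log2 CPM from the mean over 8 samples (colour, clipped at -1 and 1) for the 44 tested genes (rows) in each sample (columns, 1 week left of the line, 3 weeks right). Subunit genes are mostly above their mean in replicate 3 of 3 weeks (median 0.42) and below it in replicate 4 (median -0.37). Psmg1, Psmg2 and Psmc3ip are higher in every sample of 1 week than in any of 3 weeks. Psmg3 and Psmg4 overlap on this scale, through replicate 3 of 3 weeks.

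Summed over the 14 genes of the core particle, RPKM was 1389, 1199, 1190 and 1209 at 1 week and 1012, 1186, 1451 and 853 at 3 weeks. The groups overlapped, and the ratio of the means was 0.903. For the 17 genes of the regulatory particle the sums were 1066, 994, 1063 and 1077 against 915, 983, 992 and 804, which did not overlap and gave a ratio of 0.879. With the deposited TPM values in place of RPKM, the ratios were 0.835 and 0.826, and the groups did not overlap for either particle. The sum for Psmg1 to Psmg4 gave a ratio of 0.474 on RPKM and 0.442 on TPM.

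**Figure D5:**
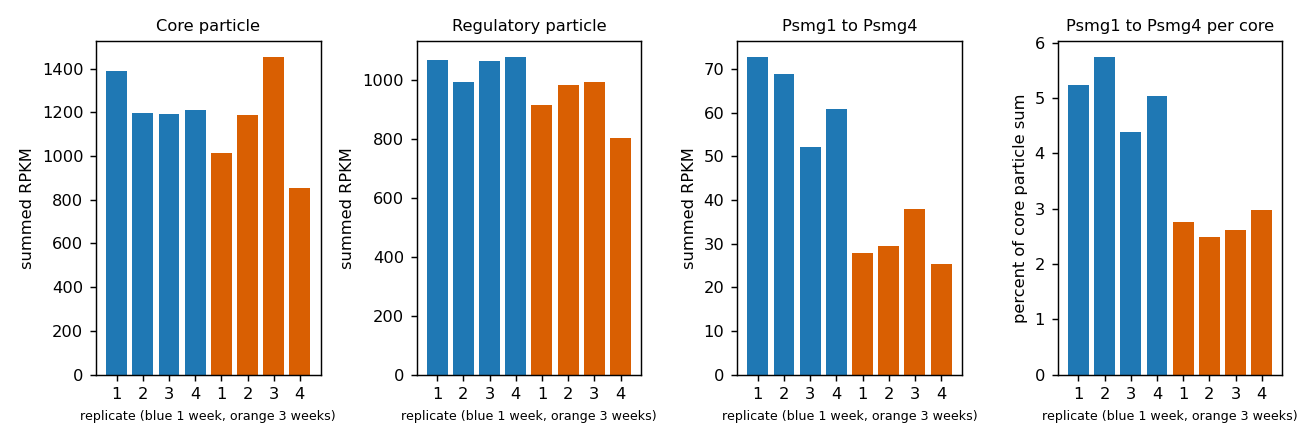
Summed RPKM per sample (bars, from 0, blue for 1 week and orange for 3 weeks, replicates 1 to 4) of the core particle, the regulatory particle and the 4 Psmg genes, with the last panel giving the Psmg sum as a percentage of the core particle sum. The core particle sums overlap (853 to 1451 at 3 weeks), and the share of the Psmg genes is 4.39% to 5.74% at 1 week and 2.49% to 2.98% at 3 weeks.

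Of the chaperones of the ATPase ring, Psmd5, Psmd9 and Psmd10 (gankyrin), edgeR called 0 of 3 (against 32.8% of all tested genes). DESeq2 also called 0 of 3, and 0 had an unadjusted p-value under 0.05. Log2 fold changes were 0.09, -0.20 and -0.04, and the lowest bound of their intervals was -0.53. Psmd9 was at 5.58 ± 0.175 RPKM after 1 week and 4.33 ± 0.440 after 3 weeks (SD, n = 4), without overlap in RPKM. The contrast with the Psmg genes is one of calls, and the difference between the groups of chaperones was not tested.

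The activators other than the regulatory particle gave no call in edgeR (against 32.8% of all tested genes) or DESeq2. Of the 4 tested genes, 0 had an unadjusted p-value under 0.05. Psme1 and Psme2 encode the subunits of PA28, an activator induced by interferon-gamma. Psme1 was at 18.9, 22.6, 16.6 and 16.1 RPKM at 1 week and at 14.4, 16.3, 17.4 and 20.5 RPKM at 3 weeks, with overlap (log2 fold change 0.05, 95% interval -0.31 to 0.42, adjusted p = 0.832, edgeR). Psme2 was at 39.9, 46.4, 33.6 and 32.1 RPKM against 29.8, 38.0, 50.1 and 37.1 RPKM (0.21, -0.27 to 0.69, adjusted p = 0.485), also with overlap. Only 31.2% of its reads were unique.

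Psme3, the nuclear PA28 gamma, was at 69.2, 66.2, 68.5 and 70.9 RPKM at 1 week and at 51.6, 58.3, 60.4 and 46.9 RPKM at 3 weeks. The RPKM groups did not overlap, and the log2 fold change was -0.17 (95% interval -0.48 to 0.15, adjusted p = 0.388, edgeR). Psme4 (PA200) was at 22.2, 21.4, 22.1 and 20.2 RPKM against 21.7, 21.9, 17.7 and 20.5 RPKM, with a log2 fold change of 0.09 (-0.14 to 0.31, adjusted p = 0.527). Psmf1 (PI31), named for its inhibition of the core particle in vitro, was at 7.52 ± 0.646 and 6.12 ± 0.575 RPKM (SD, n = 4), which gave -0.14 on the log2 scale (adjusted p = 0.381).

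Psmc3ip (ENSMUSG00000019303, chromosome 11, 101091823 to 101095436) had the lowest log2 fold change of the 44 genes. It was at 2.98, 3.52, 3.79 and 4.93 RPKM at 1 week and at 1.18, 1.27, 1.24 and 0.899 RPKM at 3 weeks, without overlap. The log2 fold change was -1.55 (SE 0.24, adjusted p = 0.00154, edgeR) and stayed under the threshold in all 18 alternatives. Its exon reads numbered 99 to 158 per sample at 1 week and 24 to 40 at 3 weeks. It overlaps Mlx on the opposite strand, and no source used here says that strand was counted, so reads of the pair cannot be told apart there. Overlap with an annotated gene on the opposite strand applied to 14 of the 47 genes.

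The remaining 3 genes did not pass the filter on low counts. Psma8, the alpha subunit of the testis, had 0 reads in 7 samples and 1 read in replicate 4 of 3 weeks, where 3 reads would equal 0.0584 to 0.0838 RPKM depending on the sample. Psmb11, the beta subunit of thymic epithelium, had 0 or 1 read per sample, at a limit of 0.0304 to 0.0436 RPKM. Psme2b, a gene similar to Psme2, had 3, 5, 6 and 3 reads at 1 week and 0, 0, 8 and 15 reads at 3 weeks, none of them unique. These limits cover counting error only.

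Genes that work with the proteasome were examined in lists. Of 9 tested partner genes, 1 fell (11.1%, against 17.0% of all tested genes) and 0 rose (1 at an unadjusted p-value under 0.05 and 0 in DESeq2). Uchl5, a deubiquitinase of the regulatory particle, was at 15.6, 14.9, 16.2 and 19.4 RPKM at 1 week and at 9.02, 10.2, 11.1 and 7.20 RPKM at 3 weeks, without overlap. Its log2 fold change was -0.64 (SE 0.18, adjusted p = 0.0265, edgeR), and the call was lost in 5 of 18 alternatives. Adrm1, which anchors Uchl5, was at -0.03 on the log2 scale (adjusted p = 0.849, 15.0% of reads unique), and Sem1 at 0.23 (adjusted p = 0.505). The median of the list was -0.04. Paaf1 had no row and was not analysed here.

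Of 7 regulators of proteasome gene transcription, 1 was lower (14.3%, against 17.0% of all tested genes) and 0 were higher in edgeR, against 1 at an unadjusted p-value under 0.05 and 1 in DESeq2. Nfyb fell by 0.63 on the log2 scale (SE 0.19, adjusted p = 0.0345, edgeR), from 4.26 to 4.96 RPKM at 1 week to 1.89 to 3.16 RPKM at 3 weeks, and lost the call in 6 of 18 alternatives. It encodes a subunit of NF-Y, which binds CCAAT, and its partners Nfya (0.16) and Nfyc (0.11) were not called. Nfe2l1, which encodes the factor that raises proteasome gene transcription when proteasome activity is low, was at 79.9, 110, 74.7 and 73.0 RPKM at 1 week and at 148, 115, 71.9 and 287 RPKM at 3 weeks. The groups overlapped, and the log2 fold change of 1.02 missed the threshold (SE 0.35, adjusted p = 0.0529), whereas the preparation block gave 1.24 (adjusted p = 0.0312). Replicate 4 of 3 weeks, the sample with the lowest subunit levels, had the highest Nfe2l1, and replicate 3, with the highest subunit levels, had the lowest of the 8 samples.

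Among the genes of ubiquitin and its delivery, a rise was seen for Zfand2a. It encodes AIRAP, a proteasome-associated protein induced by arsenite, and was at 14.3, 17.8, 18.4 and 20.6 RPKM at 1 week and at 30.3, 29.3, 28.4 and 30.4 RPKM at 3 weeks. It rose by 0.90 on the log2 scale (SE 0.13, adjusted p = 0.00109, edgeR) and passed in all 18 alternatives. Every 3-week sample lay above every 1-week sample.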

How the data were processed

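Poly(A) RNA of mouse KCs was sequenced from 4 samples of 1 week and 4 of 3 weeks of culture. The authors mapped trimmed reads in the CLC Genomics Workbench (GRCm38) and deposited, per gene, whole counts of reads on exons, on introns and on the gene, as well as unique counts. The authors also deposited RPKM and TPM, written with decimal commas, and the RPKM values equal exon reads over exon length over 1 number of mapped reads per sample. Use of the strand and the annotation release are not given in the sources used here, but the coordinates of all 47 genes equal those of GENCODE M21. Between 1.48% and 2.38% of the reads were intronic and 81.6% to 84.7% of exon reads were unique.

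Total exon reads (13896807 to 20026084 per sample, which gives few reads for genes such as Psmc3ip) entered edgeR 4.0.16 (R 4.3.3; filterByExpr, TMM, glmQLFit and glmQLFTest, unpaired, Benjamini-Hochberg over 12590 genes, threshold 0.05), after a run on simulated data. Standard errors were derived from the F statistics, and 95% intervals from the same fit. No pair of replicates agreed within sampling noise (smallest chi-square per degree of freedom 15.4), so each sample counted separately. Alternatives were DESeq2 1.42.0, limma 3.58.1 on log2(RPKM + 0.1) and log2(RPKM + 1), other filters (none, or 10 reads in every sample), upper-quartile scaling, unique or total gene reads, blocks by replicate or by the preparation number in the file names (46, 47, 49 and 90 at 1 week, 46, 49, 57 and 90 at 3 weeks; by the study's text the same batches of KCs were cultured for either time, and this fit leaves out the samples of preparations 47 and 57), TPM sums, and the omission of each sample. Scripts ran in Python 3.11.15 and figures were drawn with matplotlib 3.10.9. Summed RPKM values and upstream windows (RefSeq) are descriptions without a test.

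All genes of the rule could be named, and values in every sample were given for those past the threshold, the catalytic subunits, the activators Psme1 to Psme4 and the genes under the filter. Other named genes came from lists of partners, regulators, ubiquitin genes, immunoproteasome genes and cell type markers. Some genes of the ubiquitin list are not reported here. The rule and the lists were chosen with earlier results of these data known. Values in every sample of Psmg4, Psmb4, Psmc2, Psmc6 and of list genes were added after they had been seen.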

Additional observations from a re-analysis of the deposited data

Results flagged for a closer look

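In 10 of 184 groups of 4 values examined, the highest or lowest sample lay far from the others by Dixon's criterion, and chance alone flags about 1 in 20 groups. At 1 week, replicate 2 was low for Psma1 (48.1 RPKM), Psma5 (78.3 RPKM), Psmd6 (39.2 RPKM), Psmd7 (69.2 RPKM) and the summed regulatory particle (994 RPKM). Replicate 1 of 1 week was high for Psmd2 (126 RPKM), Psmd10 (26.5 RPKM), Txnl1 (72.3 RPKM) and the summed core particle (1389 RPKM). At 3 weeks, replicate 4 was low for Nsfl1c (18.5 RPKM). The causes were not tested.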

How the results depend on the processing

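The number of proteasome genes called higher at 3 weeks, 1 in the reported fit, was 0 in limma on log2(RPKM + 0.1) and log2(RPKM + 1), without a filter on low counts, with total gene reads, with upper-quartile scaling, with the preparation block and with the replicate block. With single samples left out it ranged from 0 to 1, with the call kept only without replicate 4 of 3 weeks. The number called lower, 4, was 10 in both limma fits, and it ranged from 3 to 9 over the samples left out, with 9 without replicate 3 of 3 weeks. The causes were not tested. The median log2 fold change of the 44 genes ranged from -0.17 to 0.06 with samples left out and was -0.24 at its lowest, on log2(RPKM + 0.1), and -0.22 with the preparation block.

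With the replicate block, 3 genes were lower (Psmg3 was lost) and 0 higher. The deviations of same-numbered samples correlated at -0.23, -0.15, -0.15 and 0.25, and only replicates 1 and 4 carry the same preparation number at both times. Preparations 46, 49 and 90, which occur at both times, correlated at -0.23, 0.20 and 0.25.

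Over 80 tested genes and 18 alternatives, 38 values lost and 41 gained the threshold. A further 117 values differed in sign from the reported fit for genes called in neither, which have no called direction, and no called gene changed sign. Low reads limit Psmc3ip and Psmg4 most.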
